A study of Mus musculus with 52 samples.

Results

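Triphenyl phosphate (TPhP), an aryl phosphate used as a flame retardant and plasticizer, and mono(2-ethylhexyl) phthalate (MEHP), the monoester formed in the body from a common phthalate plasticizer, were compared in mouse bone marrow stromal cultures after 4 days of exposure. The comparison held 8 of the 52 arrays of the series, 4 with TPhP and 4 with MEHP, chosen by the treatment and day in the sample titles. Each compound was represented once in each of 4 cell pools, numbered 12, 15, 19 and 20. The marrow came from C57BL/6J female mice 8 weeks old, and each pool joined the cells of 2 to 4 animals. All cultures compared here were switched at day 7 after plating to a bone-forming medium with ascorbate, glycerol phosphate, insulin and dexamethasone at 10 nM, and were dosed at that time. The vehicle, TPhP and MEHP cultures all received DMSO at 0.1%. The labels give doses for other compounds of the study and none for TPhP or MEHP, so the compound and its dose cannot be told apart in any difference below.

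Marrow stromal cells can become osteoblasts, which lay down and mineralize bone matrix, or adipocytes, which store lipid. The nuclear receptor PPARγ, working as a heterodimer with RXR, turns on the adipocyte program and opposes the osteoblast one, and both TPhP and MEHP are known as PPARγ activators. MEHP is also known to activate PPARα, the relative of PPARγ that controls fatty acid oxidation in liver.

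Transcripts were measured on Affymetrix Mouse Gene 2.0 ST arrays, and all values are log2 values as deposited, so a difference of 1 is a doubling of signal. The medians of the 8 arrays lay between 4.02 and 4.09. Marrow stromal and osteoblast transcripts were high in every day 4 culture: Cxcl12, a chemokine of marrow stroma, lay between 11.86 and 12.18 on the 8 arrays, and Col1a1, a chain of type I collagen, between 10.08 and 11.44. Macrophage transcripts were high as well. Adgre1, the gene of a macrophage surface receptor used as a marker of these cells, lay between 9.72 and 10.56, so the cultures were not stromal cells alone. In such mixed cultures fewer cells of a type and less RNA per cell cannot be told apart.

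Pool 12 stood apart. Across 14911 genes the standard deviation of the TPhP minus MEHP difference was 0.47 in pool 12, against 0.23 in pool 15, 0.24 in pool 19 and 0.32 in pool 20. In pool 12, 599 genes differed by more than 1 between the compounds, and 48, 44 and 168 did so in pools 15, 19 and 20. Among them were myeloid and osteoblast transcripts. Arg1, arginase 1 of alternatively activated macrophages, read 4.43 on the TPhP array of pool 12, against 11.79 with MEHP and 11.68 with vehicle in the same pool. Retnla, another transcript of such macrophages, read 1.87 with TPhP, 11.56 with MEHP and 11.08 with vehicle in that pool. Chil3, a chitinase-like protein of myeloid cells, read 7.89, 12.25 and 12.21 in the same order. Arg1 and Retnla also varied between pools: pool 15 read above 7 for both in all 3 treatments, and pools 19 and 20 read below 6 with vehicle and with MEHP. Pool 20 showed the opposite pattern for Rnase2a, an eosinophil-type ribonuclease, at 10.77 with TPhP and 4.60 with MEHP, where pool 12 had 6.55 and 11.98. The mean log2 value of 16 neutrophil genes ran from 5.36 to 8.84 over the TPhP arrays and from 7.06 to 8.87 over the MEHP arrays, and that of 27 macrophage genes from 8.41 to 9.01 and from 8.41 to 9.17. The day 4 calls, list medians and main genes below are therefore given with and without pool 12, and the part of these myeloid differences in them was not tested.

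**Figure D1:**
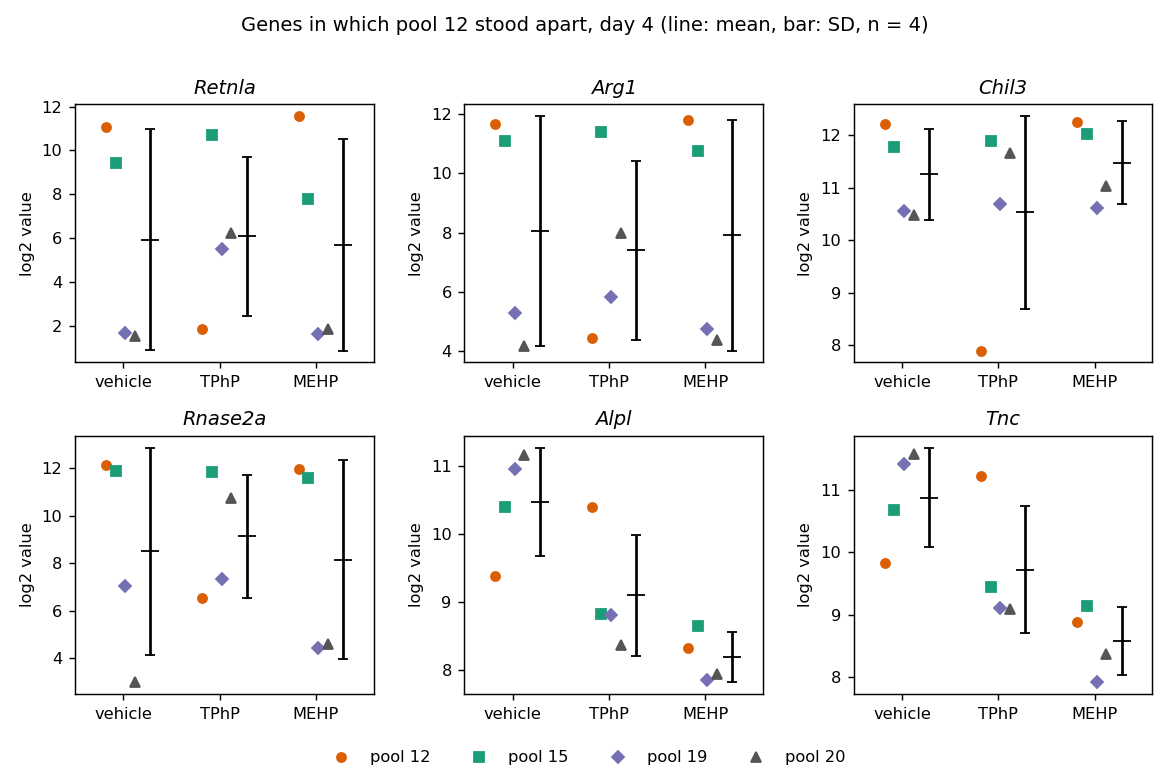
Log2 value of 4 myeloid genes (Retnla, Arg1, Chil3, Rnase2a) and 2 osteoblast-related genes (Alpl, Tnc) on each day 4 array, by treatment. Each symbol is the array of 1 pool, and the line and bar are the mean and SD of 4 arrays. The orange circle of pool 12 drops in the TPhP column for the 4 myeloid genes (Arg1 4.43 with TPhP, 11.79 with MEHP) and stands above the other TPhP arrays for Alpl and Tnc.

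Between TPhP and MEHP at day 4, 2 genes passed the test across all genes (limma, Benjamini-Hochberg adjusted p under 0.05), which is 0.0134% of the 14911 tested. Ptges, the inducible prostaglandin E synthase, was lower with TPhP, and Sfrp2, a secreted inhibitor of Wnt signalling, was higher with TPhP, each 0.00671% of the genes. At an unadjusted p under 0.05 the count was 543 genes, 3.64% of those tested, 329 (2.21%) with the TPhP mean above and 214 (1.44%) with it below. The median difference over all genes was 0.01, and 55.2% of genes lay above 0. The difference was smaller than 0.5 in either direction for 98.0% of genes, and the 95% interval of the difference lay inside -1 to 1 for 14388 genes, or 96.5%. For those genes a difference of 2-fold or more lies outside the interval. For the other 523 genes the interval reached 1 or -1, so a 2-fold difference was not outside it. All these intervals use the spread shared by the 13 groups of the series, not that of the 8 arrays alone. The mean correlation of an array with the others of its group was 0.963 to 0.977 with TPhP and 0.965 to 0.971 with MEHP at day 4. At day 1 it was higher, 0.979 to 0.988 and 0.989 to 0.990, so the shared spread may make the day 4 intervals too narrow. Without pool 12 there was 1 call, Ptges. Fitted on the 8 arrays alone, with their own estimate of the spread, limma gave no call, and 289 genes had an unadjusted p under 0.05.

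Ptges had the smallest adjusted p. It makes prostaglandin E2 from the endoperoxide that the cyclooxygenases produce, and in bone prostaglandin E2 is known to act on both osteoblasts and osteoclasts. With TPhP it read 5.55, 6.04, 6.29 and 5.84 in pools 12, 15, 19 and 20. With MEHP it read 6.53, 6.65, 7.24 and 7.23, and with vehicle 6.04, 5.54, 5.51 and 5.71. All 4 TPhP arrays lay below all 4 MEHP arrays, and they overlapped with the vehicle arrays. The mean was 5.93 ± 0.31 (SD, n = 4) with TPhP and 6.91 ± 0.37 (SD, n = 4) with MEHP. The difference was -0.98 ± 0.16 (SE), with a 95% interval of -1.31 to -0.65 and a limma adjusted p of 0.0056. It was -0.98 again without pool 12, with a limma adjusted p of 0.0099. The call was lost when pool 15, pool 19 or pool 20 was left out, with limma adjusted p values of 0.073, 0.094 and 1.00 and differences of -1.11, -0.996 and -0.849. Set against the shared vehicle arrays, MEHP raised Ptges by 1.21 (limma adjusted p = 3.0e-07), whereas the TPhP minus vehicle difference was 0.23 (limma adjusted p = 0.38).

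The 250 bases before the start of Ptges are shown because it carried the main call. They lie on the minus strand at chr2:30903298-30903547 (GRCm38.p6, RefSeq), and the capitals mark matches to the GC box, GGGCGG.

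Ptges: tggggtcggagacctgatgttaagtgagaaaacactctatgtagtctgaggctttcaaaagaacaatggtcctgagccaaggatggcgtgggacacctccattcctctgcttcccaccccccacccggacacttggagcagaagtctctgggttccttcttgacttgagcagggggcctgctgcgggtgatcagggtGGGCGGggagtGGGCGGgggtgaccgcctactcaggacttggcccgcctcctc

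The 2 GC boxes stand next to each other, the first beginning 53 bases before the start. On either strand a GC box was found in 32.7% of the 32851 windows of this length in the table. Neither a direct repeat with 1 base between the copies, AGGTCANAGGTCA, the form of site that PPAR and RXR bind (0.0335% of windows), nor a TATAAA (12.4% of windows) was found in this window. The letters describe the sequence alone.

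Of 15 prostaglandin genes tested, a list assembled after the values had been seen, Ptges was the only call, and the median TPhP minus MEHP difference of the 15 was -0.05, with 6 above 0. Ptgs2, the inducible cyclooxygenase that feeds Ptges, had a difference of 0.36 with a wide 95% interval of -0.53 to 1.25, and it fell by 1.36 with TPhP and by 1.72 with MEHP against vehicle. Ptges2, a constitutive prostaglandin E synthase, differed by -0.05 (95% interval -0.36 to 0.26), having risen by 1.12 with TPhP and by 1.18 with MEHP. The prostaglandin E receptors Ptger2, Ptger3 and Ptger4 differed by -0.46, 0.16 and -0.0048, and none passed the test. The values of Ptger2 and Ptgs2 rested largely on pool 12. In pools 12, 15, 19 and 20 Ptger2 differed by -1.47, -0.28, 0.07 and -0.14, and Ptgs2 by 1.18, 0.36, -0.21 and 0.11. The median of this list was taken over all pools only.

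Sfrp2, which binds Wnt ligands and is made by stromal cells and young osteoblasts, read 7.67, 6.97, 7.16 and 6.64 with TPhP. With MEHP it read 5.96, 6.47, 5.38 and 5.72, and with vehicle 7.45, 7.55, 8.84 and 8.95. The TPhP arrays lay above all MEHP arrays, and only that of pool 12 overlapped with vehicle. The mean was 7.11 ± 0.43 (SD, n = 4) with TPhP and 5.89 ± 0.46 (SD, n = 4) with MEHP, a difference of 1.22 ± 0.23 (SE), with a 95% interval of 0.77 to 1.68 and a limma adjusted p of 0.018. Against the shared vehicle arrays it fell by 1.09 with TPhP and by 2.31 with MEHP (limma adjusted p = 0.00036 and 2.2e-10). Sfrp2 differed by 1.06 without pool 12, and this no longer passed (limma adjusted p = 0.50). It did not pass without pool 19 (1.04, limma adjusted p = 1.00) or pool 20 (1.33, limma adjusted p = 0.22) either. The array has a second Sfrp2 probe set, near background at a mean of 4.39, where the difference was 0.16; with both averaged the difference was 0.69 and the call was lost (limma adjusted p = 0.37).

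**Figure D2:**
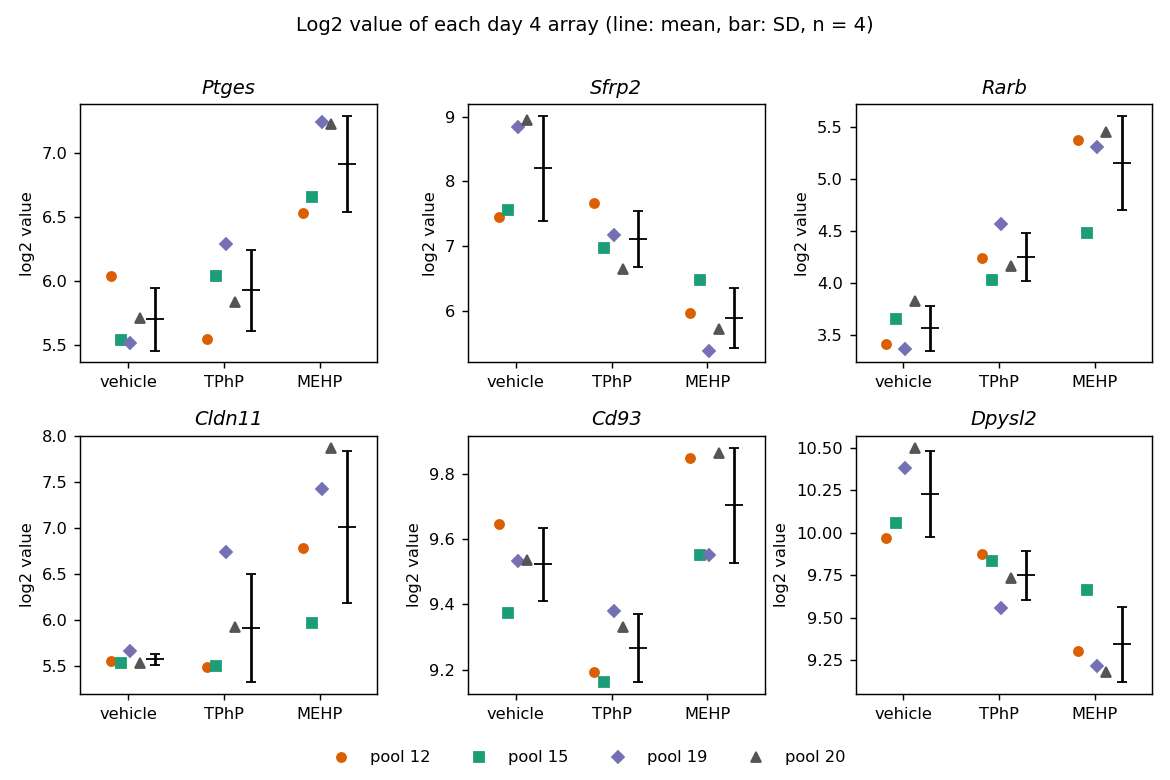
Log2 value of Ptges, Sfrp2, Rarb, Cldn11, Cd93 and Dpysl2 on each day 4 array with vehicle, TPhP and MEHP. Each symbol is 1 pool, and the line and bar are the mean and SD of 4 arrays. For Ptges the TPhP arrays (5.55 to 6.29) overlap with vehicle and lie below MEHP (6.53 to 7.24), and for Sfrp2 they lie above MEHP.

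The pool numbers paired the arrays, and a fit with pool as a block gave 3 calls at day 4 in place of 2. Ptges and Sfrp2 passed in it with limma adjusted p values of 0.0029 and 0.026. The added gene was Cd93, a C-type lectin-like receptor of endothelial and myeloid cells. It read 9.19, 9.16, 9.38 and 9.33 with TPhP and 9.85, 9.55, 9.55 and 9.86 with MEHP, so the groups did not overlap. The difference was small, at -0.44 (95% interval -0.64 to -0.23), with a limma adjusted p of 0.031 with the block and 0.31 without it. Without pool 12 it was -0.37, and the call with the block was lost (limma adjusted p = 0.43, a fit chosen after seeing the data). Against vehicle TPhP differed by -0.26, which passed with the block (limma adjusted p = 0.022) and not without it (limma adjusted p = 0.074). The MEHP minus vehicle difference of 0.18 passed in neither fit.

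In all, 198 genes had no overlap between the 4 TPhP and the 4 MEHP arrays, 1.33% of those tested, 116 (0.778%) with TPhP above and 82 (0.55%) with it below. Beyond the calls, the genes named next are those with the smallest unadjusted p among genes with the same sign in all 4 pools, 12 in each direction including Sfrp2 and Ptges. None but these 2 passed across all genes. Of the 12 with the higher TPhP mean, 7 had no overlap between arrays, and of the 12 with the lower mean, 5 had none. Their differences ran from 0.40 to 1.22 in size in the first group and from 0.30 to 1.10 in the second. Without pool 12 they ran from 0.29 to 1.06 and from 0.37 to 1.03.

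On the higher side several encode secreted or matrix proteins of the stroma. Sfrp1, a close relative of Sfrp2 and also a Wnt inhibitor, read 10.33, 10.12, 9.67 and 9.29 with TPhP and 9.56, 9.70, 8.86 and 8.51 with MEHP. Within every pool TPhP was above MEHP, while the groups overlapped because both compounds read lower in pools 19 and 20. The difference was 0.69 ± 0.21 (SE), and 0.67 without pool 12. Tnfaip6, a hyaluronan-binding secreted protein, differed by 0.68 ± 0.18 with no overlap, and Gas6, the ligand of the TAM receptors, by 0.46 ± 0.14 with overlap. Tnfaip6 was low, below the table's median of 4.05 on 2 TPhP arrays and on all 4 MEHP arrays. Ntrk2, the receptor of the neurotrophin BDNF, read between 4.25 and 4.34 on the 4 TPhP arrays and between 3.42 and 3.96 on the MEHP arrays, close to the table's median of 4.05. Its difference was 0.70 ± 0.18. Dpysl2, a cytoskeletal regulator, differed by 0.41 ± 0.10 and Tvp23a, a Golgi membrane protein, by 0.69 ± 0.18. Tvp23a was below the table's median on 3 MEHP arrays. The low-level transcripts Gzmk, a granzyme of T and NK cells, and Vsnl1, a neuronal calcium sensor, differed by 0.56 ± 0.13 and 0.54 ± 0.17. Against vehicle all 12 of these genes passed as lower with MEHP, and 5 of them (Sfrp2, Dpysl2, Tnc, Sfrp1 and Alpl) passed as lower with TPhP, joined by Gas6 with the pool as a block. Over all genes 11.7% passed as lower with MEHP and 7.94% with TPhP, without the block. The MEHP arrays enter both differences, so these counts are a description of where the levels lay.

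Tnc and Alpl in that group rested partly on pool 12. Tnc, the matrix glycoprotein tenascin C, read 11.23, 9.45, 9.11 and 9.09 with TPhP and 8.88, 9.14, 7.91 and 8.36 with MEHP. Its difference was 1.15 ± 0.30 (SE) with pool 12 and 0.75 without. Alpl, the alkaline phosphatase that osteoblasts need for mineralization, read 10.40, 8.83, 8.81 and 8.36 with TPhP and 8.32, 8.65, 7.85 and 7.94 with MEHP. Its difference was 0.91 ± 0.27 (SE) with pool 12 and 0.52 without. In both genes the TPhP array of pool 12 was the highest of the 8 by more than 1, and the remaining arrays overlapped.

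On the lower side Cldn11, a tight junction claudin, had a difference of -1.10 ± 0.25 (SE). It read 5.49, 5.50, 6.74 and 5.92 with TPhP and 6.78, 5.96, 7.42 and 7.88 with MEHP, and between 5.53 and 5.66 with vehicle. With TPhP pools 12 and 15 lay just below the vehicle arrays, while all 4 MEHP arrays were above vehicle. It passed only when pool 15 was left out (-1.31, limma adjusted p = 0.042). Ces1d, a carboxylesterase that hydrolyses lipids and xenobiotic esters, read 2.14, 2.57, 3.18 and 2.49 with TPhP and 3.04, 2.75, 3.98 and 4.36 with MEHP. All 8 values but one lay below the table's median, and the difference was -0.94 ± 0.27 (SE). Itih2, a hyaluronan-associated serum protein, differed by -0.68 ± 0.17, and Tinagl1, a basement membrane protein, by -0.76 ± 0.20. Mall, a membrane raft protein, Cacng4, a calcium channel subunit, Snx21, a sorting nexin, Hid1, a Golgi trafficking protein, and Tmem255a, a transmembrane protein, completed the 12, with differences of -0.69, -0.42, -0.30, -0.58 and -0.63. Tmem255a was below the table's median on all 4 TPhP arrays and 1 MEHP array, and Mall on 2 TPhP arrays. Against vehicle 10 of the 12 passed as higher with MEHP, all but Cd93 and Snx21, and only Rarb passed as higher with TPhP. Over all genes 12.1% passed as higher with MEHP and 11% with TPhP. Here too the MEHP arrays enter both differences, so these counts only describe where the levels lay.

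**Figure D3:**
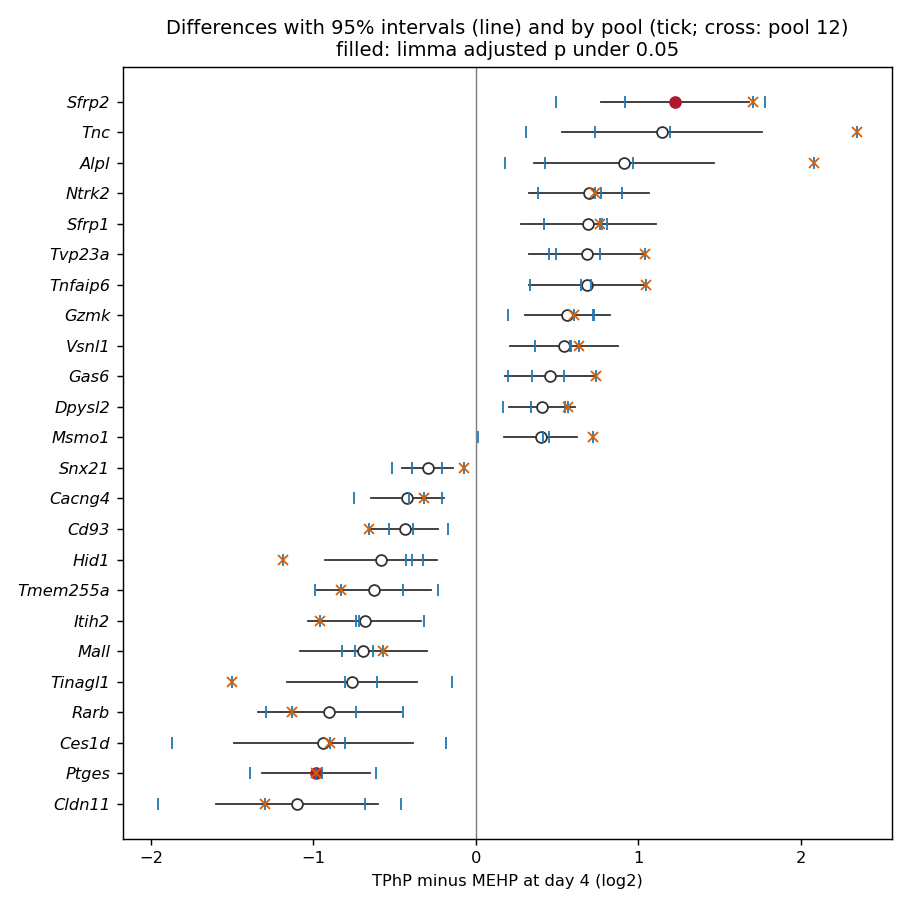
TPhP minus MEHP difference at day 4 (log2) of the 24 genes, 12 in each direction, with 95% intervals (lines), the 4 pools (ticks) and pool 12 (orange cross). Filled circles are the 2 genes past the test, Sfrp2 at 1.22 and Ptges at -0.98, and the crosses of Tnc, Alpl, Tinagl1 and Hid1 are among those outside their intervals.

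Rarb, the retinoic acid receptor β, is both a receptor for retinoic acid and a classical gene turned on by it. It read 4.24, 4.03, 4.57 and 4.16 with TPhP, 5.38, 4.48, 5.31 and 5.45 with MEHP, and 3.42, 3.65, 3.36 and 3.83 with vehicle. The groups overlapped only through the MEHP array of pool 15. The difference was -0.90 ± 0.22 (SE), with a 95% interval of -1.34 to -0.46 and a limma adjusted p of 0.40, or 0.093 with the pool as a block. Without pool 12 it was -0.83. Both compounds raised Rarb over vehicle, TPhP by 0.68 and MEHP by 1.59 (limma adjusted p = 0.022 and 4.1e-07). At day 1 its difference was -1.09.

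The 250 bases before the start of Rarb are shown because they hold the response element for which the gene is known. They lie on the minus strand at chr14:16575477-16575726 (GRCm38.p6, RefSeq), and the capitals mark a direct repeat with 5 bases between the copies, searched on both strands as GGTTCANNNNNAGTTCA.

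Rarb: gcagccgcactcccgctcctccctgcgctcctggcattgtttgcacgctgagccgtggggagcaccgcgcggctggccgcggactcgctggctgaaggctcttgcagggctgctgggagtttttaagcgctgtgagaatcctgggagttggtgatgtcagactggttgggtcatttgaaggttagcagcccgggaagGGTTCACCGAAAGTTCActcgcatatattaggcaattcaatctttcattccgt

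This match begins 53 bases before the start, and only 2 of the 32851 windows of that length, 0.00609%, hold these letters. The letters searched are those of the copies in Rarb itself, so neither the match nor its rarity is a test. This exact pattern was not found in the Ptges window, and other forms of such a repeat were not searched. The match is a description of the sequence.

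Other retinoid genes were set beside Rarb. Of 9 tested, none passed between the compounds, 7 lay below 0, and the median was -0.22 (-0.19 without pool 12). Tgm2, a transglutaminase induced by retinoic acid, differed by -0.63 ± 0.27, and Cyp26b1 and Dhrs3, which break down or reduce retinoids, by -0.34 ± 0.21 and -0.31 ± 0.13. Crabp2, which carries retinoic acid to its receptors, differed the other way, by 0.36 ± 0.22. Tgm2 read 10.54 with MEHP and 8.79 with TPhP in pool 12, and 9.54 against 9.84 in pool 15, so its pools did not share a sign.

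The adipocyte program was raised by both compounds. Against vehicle 2818 genes passed with TPhP, 18.9% of those tested, and 3548 with MEHP, 23.8%. With TPhP 11% of all genes passed as higher and 7.94% as lower, and with MEHP 12.1% and 11.7%. The vehicle arrays are shared by both. Of 28 adipocyte genes, 27 rose with TPhP and all 28 with MEHP, with medians of 2.69 and 2.74 against medians over all genes of -0.03 and -0.05. Between the compounds none of the 28 passed, 15 lay above 0, and the median was 0.02 (-0.04 without pool 12). For 21 of the 28 the 95% interval lay inside -1 to 1, and for the others a 2-fold difference was inside it.

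Fabp4, the fatty acid carrier of adipocytes, read 12.13, 12.21, 12.36 and 12.31 with TPhP and 12.16, 12.21, 12.36 and 12.30 with MEHP, against 9.52 to 10.63 with vehicle. The 95% interval of its TPhP minus MEHP difference was -0.41 to 0.40. Pparg itself differed by 0.15 (-0.13 to 0.42) and Cebpa, its partner transcription factor, by 0.08 (-0.22 to 0.38). Adipoq, the hormone adiponectin, differed by 0.04 (-0.63 to 0.70), Plin1, the coat protein of lipid droplets, by 0.03 (-0.82 to 0.89), and Lpl, lipoprotein lipase, by 0.10 (-0.10 to 0.29). Cidec, a lipid droplet fusion protein, gave the least precise value of this group, -0.16 (-1.77 to 1.45). Its interval uses the spread shared by all 13 groups. The SD of Cidec at day 4 was 0.61 with TPhP, 0.47 with MEHP and 1.68 with vehicle, and at day 1 it was 1.49 with MEHP. The signs of Fabp4, Adipoq, Plin1 and Cebpa turned without pool 12, all at differences below 0.10 in size.

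Genes of lipid storage and breakdown had medians near 0 between the compounds. For the counts against vehicle below, the share of all genes that rose was 11% with TPhP and 12.1% with MEHP. Of 21 lipogenesis genes, 18 rose with TPhP and 17 with MEHP against vehicle, and none passed between the compounds (median -0.03, 9 above 0, and -0.05 without pool 12). Of 10 lipolysis genes, 9 rose with each compound, and the median difference was -0.05 (-0.09 without pool 12). For the 12 fatty acid uptake genes the median was -0.07 (-0.08 without pool 12) and for the 22 peroxisome genes -0.08 (-0.09), with 16 of the latter raised by TPhP and 18 by MEHP. Scd1, the stearoyl-CoA desaturase, differed by -0.04 (95% interval -0.60 to 0.52), and Cd36, a fatty acid transporter, by -0.10 (-0.42 to 0.23). The 16 LXR targets had a median of 0.02 (0.03 without pool 12), and Abca1, the cholesterol exporter among them, a difference of -0.18 (-0.51 to 0.14).

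Fatty acid oxidation genes had a median slightly below 0, and none passed between the compounds. Of 26 tested, 25 lay below 0, where 44.8% of all genes did, and the median was -0.19 against 0.01 over all genes. The median was -0.20, -0.12, -0.16 and -0.20 in pools 12, 15, 19 and 20. Without pool 12 it was -0.15, with all 26 below 0. The genes were raised by both compounds, 22 with TPhP and 23 with MEHP, by medians of 1.01 and 1.17. Among all genes tested 11% rose with TPhP and 12.1% with MEHP. Examples are Slc25a20, the carnitine carrier of mitochondria, at -0.35 ± 0.18 (SE), Pdk4, the kinase that spares glucose, at -0.29 ± 0.18, and Angptl4, a lipase inhibitor and early PPAR target, at -0.24 ± 0.18. Ucp3, a mitochondrial carrier, was lowest, at -0.73 ± 0.25 (SE), with 4.70, 5.33, 6.05 and 5.16 on the TPhP arrays and 5.32, 5.66, 6.38 and 6.79 on the MEHP arrays. For 25 of the 26 genes the 95% interval lay inside -1 to 1. These genes are measured on the same arrays, so their common sign is not 26 separate observations.

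Brown fat genes gave larger differences that were less even between pools. None of 11 thermogenic genes passed, all 11 lay below 0, and the median was -0.30 (-0.15 and 9 of 11 below 0 without pool 12). By pool the median was -0.46, 0.03, -0.20 and -0.51 in pools 12, 15, 19 and 20. Elovl3, the fatty acid elongase of brown fat, read 3.69, 4.18, 5.87 and 5.16 with TPhP and 5.06, 4.80, 7.70 and 7.48 with MEHP, against 2.94 to 3.33 with vehicle. TPhP was below MEHP in every pool and the groups overlapped, since pools 19 and 20 read higher with both compounds. The difference was -1.53 ± 0.53 (SE), the 95% interval -2.61 to -0.46, and the limma adjusted p 1.00. Elovl3 passed against vehicle with both compounds, at 1.59 with TPhP and 3.12 with MEHP. Cidea, a lipid droplet protein of brown fat, differed by -0.82 ± 0.48, and Otop1 by -0.45 ± 0.18. Ucp1, the uncoupling protein that defines brown fat, read 3.27 to 3.57 with TPhP and up to 4.28 with MEHP, and neither compound passed against vehicle. Ppargc1a, the coactivator of mitochondrial genes, rose by 2.84 with TPhP and by 2.85 with MEHP.

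The respiratory chain rose with both compounds, 31 of 31 subunit genes in each case, by medians of 0.64 and 0.74. Among all genes tested 11% rose with TPhP and 12.1% with MEHP. Between the compounds 26 of the 31 subunit genes lay below 0, where 44.8% of all genes did. The list median was only -0.03 (-0.06 without pool 12). Tricarboxylic acid cycle genes (20 of 21 raised by each compound) had a median of -0.02 (-0.04 without pool 12) and branched-chain amino acid catabolism genes (19 of 21 raised by TPhP and 18 by MEHP) one of 0.01 with pool 12 and 0.0082 without. In these 3 lists every 95% interval lay inside -1 to 1.

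Cholesterol synthesis genes had a median above 0. All 19 genes tested lay above 0 and none passed, with a median of 0.27 (0.14, with 16 of 19 above 0, without pool 12). By pool the median was 0.64 in pool 12, -0.05 in pool 15, 0.21 in pool 19 and 0.19 in pool 20. Against vehicle 10 of the 19 rose with TPhP, while 7 rose and 3 fell with MEHP. Over all genes 11% rose with TPhP, and 12.1% rose and 11.7% fell with MEHP. Msmo1, a sterol C4-methyl oxidase, read 8.28, 8.09, 8.11 and 8.19 with TPhP and 7.56, 8.07, 7.70 and 7.74 with MEHP, without overlap and with a difference of 0.40 ± 0.11 (SE), or 0.29 without pool 12. In pool 15 its values were nearly equal. Sqle, squalene epoxidase, differed by 0.40 ± 0.14, Fdft1, squalene synthase, by 0.40 ± 0.15, and Srebf2, the transcription factor that controls the pathway, by 0.29 ± 0.10. Hmgcs1, an early enzyme of the pathway, differed by 0.14 ± 0.15, and Insig1, the sterol sensor's anchor, by 0.01 ± 0.21. For all 19 the 95% interval lay inside -1 to 1.

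**Figure D4:**
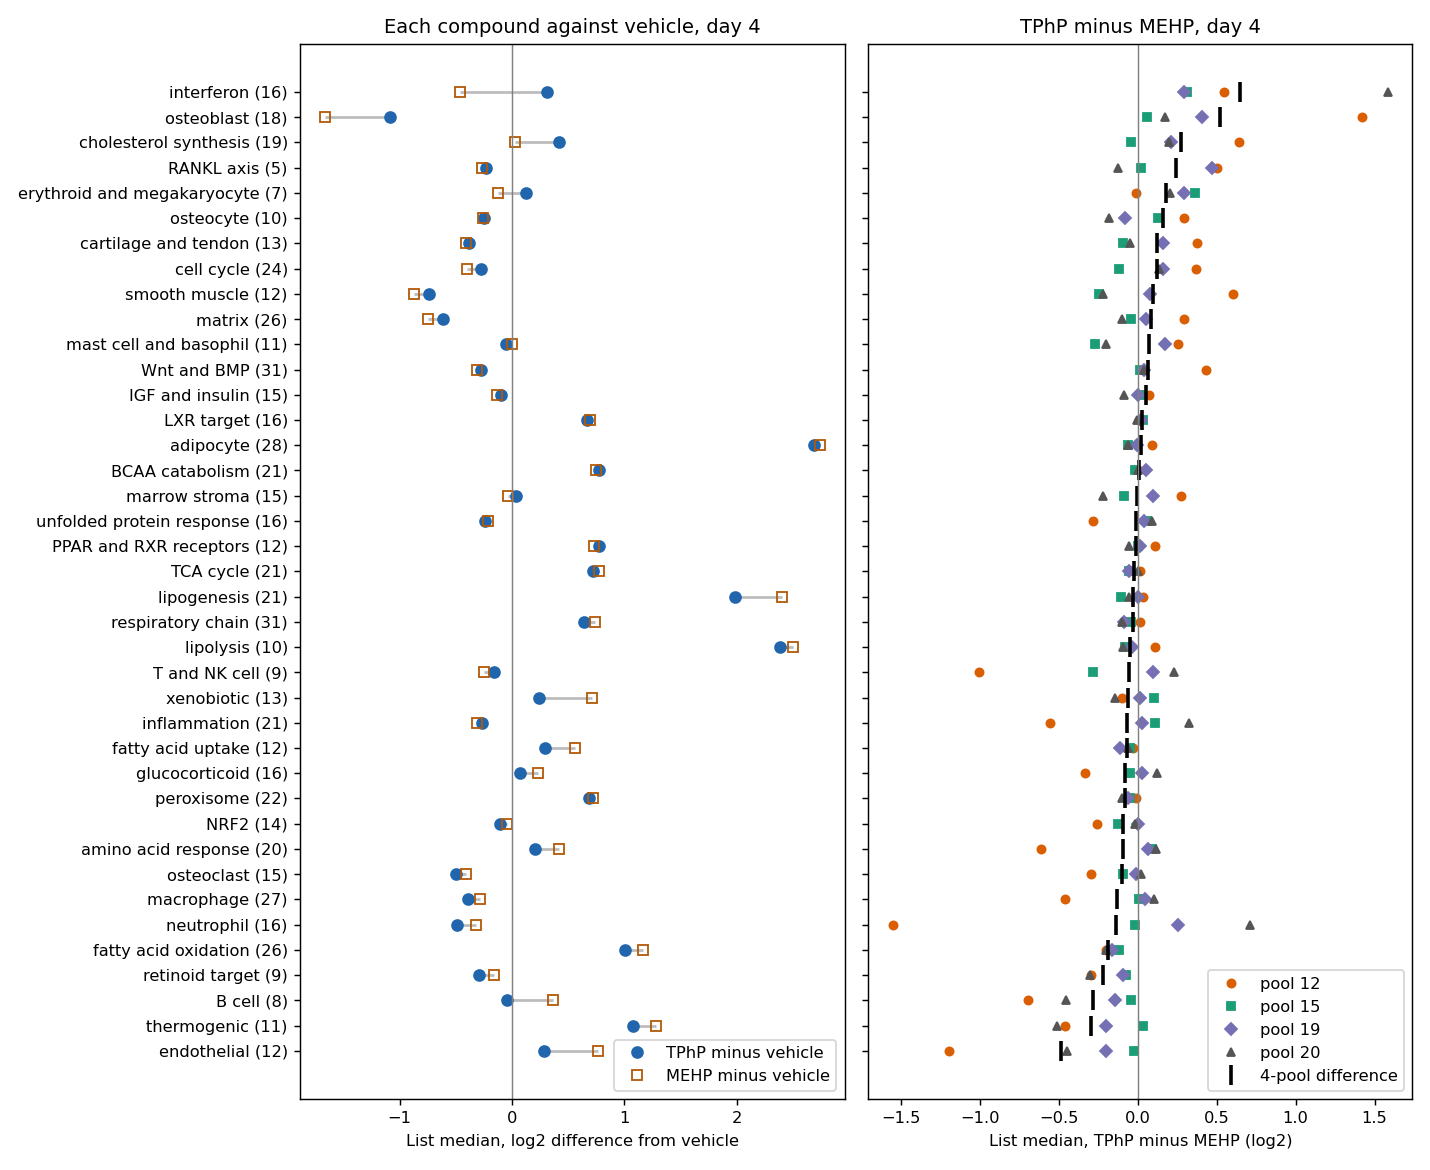
Median log2 difference of each of 39 gene lists (number of genes tested in brackets). Left, TPhP minus vehicle (circles) and MEHP minus vehicle (squares), which share the vehicle arrays. Right, TPhP minus MEHP in each pool (symbols) and over the 4 pools (black bars). The adipocyte list lies at 2.69 and 2.74 against vehicle, and pool 12 lies apart in the osteoblast (1.42), endothelial (-1.20) and neutrophil (-1.55) lists.

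Against vehicle 12 of 18 osteoblast genes fell with TPhP and 15 with MEHP, with list medians of -1.09 and -1.66. Among all genes tested 7.94% fell with TPhP and 11.7% with MEHP. Between the compounds none of the osteoblast genes passed, 16 of 18 lay above 0, and the median was 0.52. Pool 12 gave most of it, with a median of 1.42, against 0.06, 0.40 and 0.17 in pools 15, 19 and 20. Without pool 12 the median was 0.26, and 17 of 18 genes lay above 0. Sp7, the osteoblast transcription factor osterix, read 8.61, 6.66, 5.71 and 5.53 with TPhP and 5.60, 6.78, 4.85 and 5.04 with MEHP. In pool 12 the TPhP array was the higher by 3.01, and in pool 15 it was slightly the lower. The difference was 1.06 ± 0.44 (SE), and 0.41 without pool 12.

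Ibsp, bone sialoprotein, depended less on pool 12. It read 11.95, 11.51, 10.00 and 10.10 with TPhP, and 10.49, 11.33, 8.16 and 8.51 with MEHP. TPhP was above MEHP in every pool, by over 1 in all but pool 15, and the groups overlapped because pools 12 and 15 read higher with both compounds. The difference was 1.27 ± 0.62 (SE), with a 95% interval of 0.03 to 2.51, and 1.20 without pool 12. Bmp4, a bone morphogenetic protein, read 9.01, 8.46, 8.50 and 8.26 with TPhP and 7.57, 8.26, 7.47 and 7.70 with MEHP. The groups met at 8.26, the TPhP array of pool 20 and the MEHP array of pool 15, and the difference was 0.80 ± 0.25, or 0.59 without pool 12. Col1a1 differed by 0.30 ± 0.18, Bglap, osteocalcin, by 0.37 ± 0.23, and Sparc, osteonectin, by 0.04 ± 0.06. The osteocyte gene Dmp1 had an interval too wide to place, -0.79 to 2.93.

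Among 31 genes of Wnt and BMP signalling, Sfrp2 was the only call (limma). The median was 0.07 (-0.01 without pool 12), with 20 above 0. Besides Sfrp2 and Sfrp1, the extracellular Wnt inhibitors Wif1 and Dkk3 differed by 0.80 ± 0.30 and 0.53 ± 0.22, and by 0.48 and 0.42 without pool 12. Wif1 read 6.29, 5.30, 4.84 and 4.59 with TPhP and 4.56, 4.95, 3.97 and 4.36 with MEHP, with overlap. Both genes fell with each compound against vehicle, Wif1 by 1.08 and 1.87 and Dkk3 by 1.37 and 1.90 with TPhP and MEHP. The inhibitors Sfrp4 and Dkk1 differed by -0.19 ± 0.29 and 0.23 ± 0.16. Of the ligands, Wnt5a differed by -0.16 ± 0.15 and Wnt10b by -0.14 ± 0.15, and the target Axin2 by -0.07 ± 0.13.

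Other skeletal lists lay nearer to 0 or moved with pool 12. The 26 matrix genes had a median of 0.08 (-0.01 without pool 12), the 13 cartilage and tendon genes 0.12 (-0.02), the 12 smooth muscle genes 0.09 (-0.10) and the 15 marrow stroma genes a median within 0.01 of 0 (-0.06). Lepr, the leptin receptor of marrow stroma, read 9.48 to 10.00 with TPhP and 10.01 to 10.46 with MEHP, without overlap, at a difference of -0.49 ± 0.54 that did not pass. The 15 osteoclast genes had a median of -0.10 (-0.01 without pool 12), and 6 lay above 0. Mmp9, a matrix metalloprotease, was the lowest of them, at -1.30 ± 0.60 (SE), with a 95% interval of -2.52 to -0.09, and did not pass. In pools 12, 15, 19 and 20 it differed by -3.58, -0.42, -0.27 and -0.94. Ctsk, cathepsin K, fell by 2.06 with TPhP and by 1.82 with MEHP against vehicle and differed by -0.24 (95% interval -0.81 to 0.33). In the RANKL axis Tnfrsf11b, osteoprotegerin, differed by 0.47 (-0.17 to 1.11) and Tnfsf11, RANKL, by 0.03 (-0.48 to 0.55).

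Endothelial genes had a median below 0. None of 12 passed, all 12 lay below 0, and the median was -0.49, made up of -1.20 in pool 12, -0.02 in pool 15, -0.20 in pool 19 and -0.45 in pool 20. Without pool 12 the median was -0.23, with 11 of 12 below 0. Against vehicle 7 of the 12 rose with MEHP and none with TPhP (limma), where 12.1% and 11% of all genes did. With each compound 11 of the 12 lay above 0, at medians of 0.77 with MEHP and 0.29 with TPhP. That the compounds differed in the endothelial genes was not shown, since none passed between them. Kdr, the VEGF receptor 2, read 5.65, 6.01, 7.25 and 7.36 with TPhP, 7.14, 6.47, 7.65 and 8.21 with MEHP, and 5.25 to 6.32 with vehicle. Its difference was -0.80 ± 0.45 (SE), or -0.57 without pool 12, and it rose by 1.52 with MEHP, where the value with TPhP was 0.72. Cdh5, the cadherin of endothelial junctions, differed by -0.66 ± 0.36 and Pecam1 by -0.48 ± 0.31.

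Interferon-stimulated genes had the largest list median, 0.65, with all 16 above 0 and none called. Pool 20 gave 1.58, and pools 12, 15 and 19 gave 0.55, 0.31 and 0.29. Without pool 12 the median was 0.69. At day 1 the TPhP minus MEHP median of the list was 0.61, with 15 of the 16 above 0. Against vehicle at day 4 the list medians were 0.31 with TPhP and -0.46 with MEHP. Isg15, a ubiquitin-like modifier, read 9.62, 9.31, 7.18 and 8.22 with TPhP and 8.55, 8.81, 7.13 and 6.61 with MEHP, and Irf7, the factor that amplifies the response, 10.68, 10.65, 8.78 and 9.61 with TPhP and 10.11, 10.25, 8.44 and 7.63 with MEHP. In both genes the compounds differed most in pool 20, and the groups overlapped. The differences were 0.81 ± 0.46 and 0.82 ± 0.44 (SE). Only 2 of the 16 genes had a 95% interval inside -1 to 1, so for most of these genes a 2-fold difference lay inside the interval. Without the block none of the 16 passed against vehicle with either compound (limma), and with it Bst2, the antiviral tetherin, fell by 0.55 with MEHP (limma adjusted p = 0.021).

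Several immune lists turned sign without pool 12. The neutrophil median was -0.14 with pool 12 and 0.32 without, the T and NK cell median -0.05 and 0.44, the macrophage median -0.13 and 0.02, and the inflammation median -0.07 and 0.17. The B cell median was -0.29 and -0.23. The 24 cell cycle genes had a median of 0.12, with 21 above 0, and 0.05 without pool 12. Against vehicle 10 of them fell with MEHP and none with TPhP (limma, 10 and 2 with the pool as a block), at medians of -0.40 and -0.27. Without the block 11.7% of all genes fell with MEHP and 7.94% with TPhP. That MEHP and TPhP differed in the cell cycle genes was not shown, since none of the 24 passed between them. The stress lists lay close to 0: NRF2 targets at -0.10 (-0.07 without pool 12), amino acid response genes at -0.10 (0.10), unfolded protein response genes at -0.01 (0.064) and glucocorticoid targets at -0.08 (0.033). The last 3 turned sign without pool 12.

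After 1 day of exposure no gene passed between TPhP and MEHP (0% of 14911, limma), with 245 at an unadjusted p under 0.05. With the pool as a block 3 genes passed. Rarb differed by -1.09 (limma adjusted p = 0.012), and this call was lost in the fit with the block and without pool 12, chosen after seeing the data. Sox9, the transcription factor of cartilage, differed by 1.07 (limma adjusted p = 0.012), and Cxcl14, a chemokine, by -1.29 (limma adjusted p = 0.048). Both of these passed again without pool 12 with the block, at 1.19 and -1.26 (limma adjusted p = 0.010 and 0.00015). At day 4 these 2 genes differed by 0.71 and -1.02, each without overlap between arrays: Sox9 read 6.14, 5.99, 6.47 and 6.34 with TPhP and 5.68, 5.71, 5.45 and 5.26 with MEHP, and Cxcl14 7.83, 8.62, 7.69 and 7.59 with TPhP and 8.82, 9.38, 8.62 and 8.98 with MEHP. Without the block their limma adjusted p at day 4 was 1.00 and with it 0.29 for each, while with the block and without pool 12 Cxcl14 passed (-1.03, limma adjusted p = 0.0031). Both were named after their values had been seen.

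The test of the difference between the days, that is TPhP minus MEHP at day 4 less the same at day 1, gave no call either (0%, limma, and none with the pool as a block), with 170 genes at an unadjusted p under 0.05. For Ptges the day 1 difference was 0.12 and the change from day 1 to day 4 was -1.11 (limma adjusted p = 0.31). For Sfrp2 the day 1 difference was 0.52 and the change 0.71 (limma adjusted p = 1.00). For Rarb the change was 0.19. Of the 12 genes with the higher TPhP mean at day 4, 11 lay above 0 at day 1, and of the 12 with the lower mean, 6 lay below 0.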

How the data were processed

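The authors' deposited table held log2 values of 41345 probe sets on 52 arrays. Per the submitters' processing notes it was made in R 3.3.1 with oligo, while the sources used here do not give the background correction or the normalization. Of the probe sets, 23521 had 1 gene in the platform annotation, 1814 had several and 16010 were unnamed. Among the 22180 genes, 1082 had several probe sets, and the brightest one by its 52-array mean was kept. A gene was tested if 4 or more arrays exceeded the table's median of 4.05, which set 7269 aside. The number of arrays limits the precision.

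Group means were fitted with limma 3.58.1 (R 4.3.3) on all 52 arrays, in 13 groups of 4, which share 1 estimate of the spread (39 residual degrees of freedom). The p-values were adjusted over 14911 genes, and 95% intervals used limma's moderated statistic. The pipeline was tested on simulated data. The number in the sample titles was read as that of a cell preparation, so each number was taken to pair cultures. Within a pool the deviations of the TPhP and MEHP arrays from their group means correlated at 0.31, 0.68, 0.73 and 0.33. Between different pools these correlations ran from -0.65 to 0.59. The TPhP array of pool 19 with the MEHP array of pool 20 gave 0.59, and that of pool 15 with pool 12 gave 0.43. Of the 52 arrays, 43 correlated best on average with the arrays of their own pool. The fit with this replicate block had 36 residual degrees of freedom.

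Named were the 12 genes in each direction with the largest differences among calls having 1 sign in the 4 pools, filled by unadjusted p. Up to 4 called members of a list and 25 key genes were named as well. Of these key genes, Cpt1a and Cyp1b1 differed by -0.20 and -0.08 (TPhP minus MEHP, day 4), and neither passed. The members and the 39 lists were chosen with earlier results of these data known. The prostaglandin list, Cxcl14, Sox9 and the myeloid genes of pool 12 were chosen after their values were seen. Lists not described in the text had these TPhP minus MEHP medians, with those without pool 12 in brackets: osteocyte 0.16 (0.06), RANKL axis 0.24 (0.15), mast cell and basophil 0.07 (-0.09), erythroid and megakaryocyte 0.18 (0.27), xenobiotic -0.06 (0.014), PPAR and RXR receptors -0.01 (0.00065), and IGF and insulin 0.05 (-0.044).

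Alternatives were the replicate block, a fit on the compared arrays alone, cyclic loess, the mean of the probe sets, dropping the filter, raising it to 6.34 (the 75th percentile of all values) and leaving out each pool. Figures used matplotlib 3.10.9.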

Additional observations from a re-analysis of the deposited data

Results flagged for a closer look

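In 96 groups of 4 arrays, covering the named and key genes, 3 had 1 array far from the other 3, and chance gives such a group about 1 time in 20. The TPhP array of pool 12 read 11.23 for Tnc, against 9.09 to 9.45 in the other 3 pools. The TPhP array of pool 12 read 5.34 for Tinagl1, against 6.03 to 6.13. The MEHP array of pool 15 read 4.48 for Rarb, against 5.31 to 5.45.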

How the results depend on the processing

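The TPhP against MEHP day 4 count of 2 genes became 0 on the 8 arrays alone (289 at an unadjusted p under 0.05), 1 with probe sets averaged, 1 without pool 12, and 0 without pool 19 or pool 20 (449 and 390 unadjusted). Leaving out a pool gave 0 to 2, the 2 being Sfrp2 and Cldn11 without pool 15, where Ptges was lost. The replicate block gave 3, adding Cd93, and the replicate block without pool 12, chosen after seeing the data, gave 3 too: Ptges, Cxcl14 (-1.03) and Ptx3 (0.97). The day 1 count of 0 became 3 with the replicate block, 2 with it and without pool 12 (Rarb lost) and 1 on the arrays compared (Cyp26b1, -0.97). The vehicle comparisons gave 816 genes for TPhP and 1048 for MEHP on their own arrays, and 1082 to 3400 and 1503 to 3990 when a pool was left out (without pool 19, 1082 and 1626, and without pool 20, 1226 and 1503). The cause was not tested. The block alone changed no other TPhP against MEHP call.

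Without pool 12, with or without the block, 6 key genes that did not pass turned sign: Fabp4 (0.0037), Adipoq (-0.049), Plin1 (-0.081), Cebpa (-0.062), Tnfsf11 (-0.046) and Cd163 (0.31). Over all pools left out in turn they ran from -0.0095 to 0.0037, -0.049 to 0.085, -0.081 to 0.076, -0.062 to 0.18, -0.046 to 0.13 and -0.47 to 0.31.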
